A study of Arabidopsis thaliana with 8 samples.

Results

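The aquaporin family of Arabidopsis was examined in plants overexpressing ThbZIP1, a bZIP transcription factor gene from the salt-tolerant shrub Tamarix hispida, and in wild-type plants, each given abscisic acid (ABA) or water. The members were the 35 genes of the PIP1, PIP2, TIP, NIP and SIP subfamilies, found by locus tag. They were read by 80 of the 43603 gene probes of a 1-colour Agilent Arabidopsis array. The array matched 25427 genes in all, and the 35 members comprised 5 PIP1, 8 PIP2, 10 TIP, 9 NIP and 3 SIP genes. Of the members, 21 had 1 probe and 14 had several, up to 6. The 4 groups held 2 arrays each, namely ThbZIP1 overexpression plants under ABA (OE ABA), wild-type Columbia plants under ABA (WT ABA), ThbZIP1 overexpression plants in water (OE water) and wild-type plants in water (WT water). All plants were 4 weeks old, ABA was given at 10 µM, and whole plants with root and shoot were harvested after 3 h and pooled within a treatment. The OE plants were homozygous transgenic lines of the T3 generation, and neither how many lines were pooled nor the promoter of the transgene was given for these arrays in the labels. The array has no probe known to read ThbZIP1, so its overexpression was not checked. Another label field names different plants for some of the same samples, and groups were taken from the titles, genotype and treatment labels.

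Aquaporins are membrane channels that let water and small uncharged molecules cross membranes along their gradients. The plasma membrane intrinsic proteins (PIPs) set the water permeability of the cell surface, and PIP1 proteins reach the plasma membrane best when paired with PIP2 proteins. The tonoplast intrinsic proteins (TIPs) serve the vacuole, the NOD26-like intrinsic proteins (NIPs) carry solutes such as boric acid, and the small basic intrinsic proteins (SIPs) lie in the endoplasmic reticulum. ABA, the hormone of drought and salt stress, closes stomata and is known to alter both the transcripts and the activity of aquaporins, and many aquaporin transcripts also follow the time of day.

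All 4 OE arrays lay on 1 slide, while the WT arrays lay on 3 other slides that were scanned on another day with another version of the array design, so genotype cannot be told apart from slide, scan day and design version in these data. WT water replicate 1 stood apart, with 1148 outlier spots against 6 to 24 on the other arrays. Most listed ABA-induced genes were higher on that array than on its partner, by unlike amounts. COR15A had a log2 signal of 3.99 against 1.97 and RD29A 3.66 against 0.66, but ABI1 only 2.72 against 2.50. RD29B, below background on both arrays, was lower (-8.59 against -8.06). ABA itself registered in both genotypes, and of 14 tested ABA-induced genes 9 were higher in OE ABA than in OE water and 5 in WT ABA than in WT water. Of 10 clock genes, OE against WT called 6 higher and 3 lower under ABA and 6 higher and 2 lower in water, with LHY differing by -6.23 and -4.33 on the log2 scale and ELF4 by 6.69 and 4.44. Their part in the aquaporin results was not tested. Leaf markers were tested for 7 of 7 genes and none was called between genotypes. At an unadjusted p under 0.05 there were 3 under ABA, all lower in OE (LHCB2.1 by -0.87, GUN4 by -0.87 and RCA by -0.45), and 0 in water. Of 13 root markers 9 were tested, 0 of them called under ABA and 3 in water (1 higher, 2 lower in OE). The higher one, COBL9, was above background only in OE water, and CASP5, 1 of the 2 lower, only in WT water. Each of these 2 was thus tested only through the group where it was high, so their calls do not speak to root content.

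A level is given below as a log2 signal, the background-subtracted brightness of a probe on the log2 scale minus the 75th percentile of its array, so that 0 is the 75th percentile. Levels of 1 probe were compared between arrays, never with those of another probe. A gene was called when limma's moderated test gave a Benjamini-Hochberg adjusted p under 0.05 over all 31265 tested probes and a fold of at least 2. An unadjusted p under 0.05 was common, with 10904 of the 31265 probes between genotypes under ABA and 14030 in water. For ABA against water there were 4792 such probes in OE and 5188 in WT, and for the interaction 3749. Counts of genes at that threshold are to be read beside these. Where several probes matched a gene, its brightest probe stands for it. With 2 arrays in a group, p-values rest on the spread between arrays shared over the 4 groups.

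Most of the family was measurable in whole plants. Of the 35 genes, 25 were above background on all 8 arrays, 4 on some and 6 on none, and 27 were tested. All 13 PIP genes and all 3 SIP genes were tested, against 7 of 10 TIP genes and 4 of 9 NIP genes. The 8 genes not tested were TIP3;1 and TIP3;2, channels of seed storage vacuoles, TIP1;3, NIP4;1 and NIP4;2, which are known from pollen, NIP2;1, a root channel induced by low oxygen, and NIP1;1 and NIP3;1. The listed seed and pollen markers were likewise mostly dim, with 1 of 10 seed markers and 1 of 8 pollen markers tested and 3 and 4 of them above background on no array. TIP3;1 and NIP4;2 were above background on 1 WT ABA array each, at -5.93 and -5.62 on replicate 2, and on no other array. The 6 others were above background on none of the 8 arrays.

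**Figure D1:**
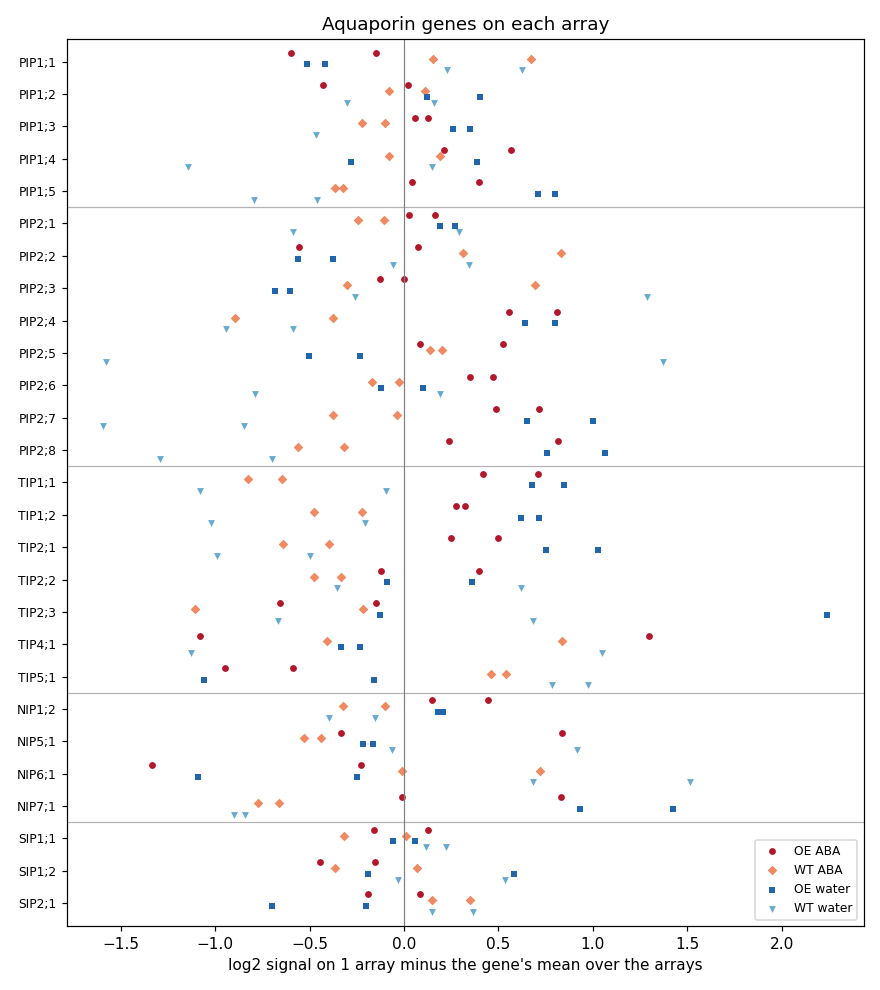
Log2 signal of the 27 tested aquaporin genes on each array, with the gene's own mean over the arrays subtracted (horizontal axis). Each point is 1 array and grey lines part the subfamilies. For the called PIP2 genes and the called TIP genes other than TIP5;1 the OE arrays lie to the right of the WT arrays under both treatments, and for that gene to the left.

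Between genotypes, 3 aquaporin genes were called under ABA and 10 in water. Under ABA, OE had 2 of 27 genes higher (1 PIP2 and 1 TIP) and 1 lower (a TIP) than WT, where 3.78% of all tested probes were called higher and 6.52% lower. In water, 8 genes were higher (1 PIP1, 3 PIP2, 3 TIP and 1 NIP) and 2 were lower (1 TIP and 1 NIP), and the 3 genes called under ABA were among these 10. In water 8.44% of all tested probes were called higher and 10.6% lower. The median log2 difference of the 27 genes was 0.27 under ABA and 0.33 in water, beside 0.02 and -0.02 over all tested probes. The difference was positive for 18 of 27 genes under ABA and for 16 in water, beside 16028 and 15374 of all 31265 tested probes. The arrays of both genotypes did not overlap for 20 of the 27 genes under ABA and for 18 in water, where 65.1% and 73.2% of all tested probes did not overlap. In whole plants, fewer cells of a type and less RNA per cell cannot be told apart.

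**Figure D2:**
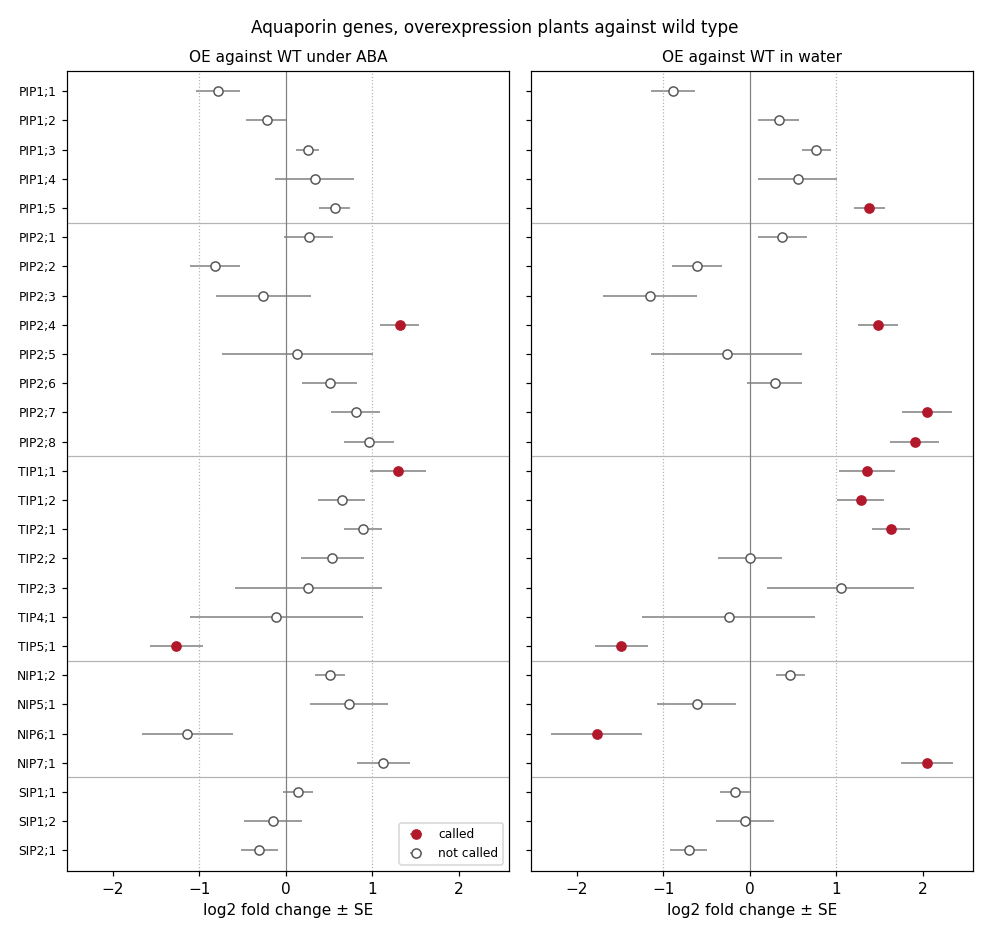
Log2 fold change of each tested aquaporin gene in OE against WT, under ABA (left panel) and in water (right panel), with standard errors from the fit. Filled points were called, 3 under ABA and 10 in water, dotted lines mark a 2-fold change, and the fitted value is drawn where a group was below background.

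Of the 5 PIP1 genes, 1 was called higher in OE in water and 0 under ABA, with 2 of the 5 at an unadjusted p under 0.05 under ABA. PIP1;5 (AT4G23400) had log2 signals of 4.89 and 4.80 on the OE water arrays against 3.63 and 3.30 on the WT water arrays. Under ABA it had 4.14 and 4.49 in OE against 3.77 and 3.72 in WT. Both OE arrays were thus above both WT arrays under each treatment, with the wider gap in water. Its log2 fold change was 1.38 ± 0.18 in water (SE, adjusted p = 0.00587) and 0.57 ± 0.18 under ABA (adjusted p = 0.0866). Its other probe was also called in water, at 1.74, and the call of the brightest probe stood when each array was left out in turn.

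The other PIP1 genes split in direction. PIP1;1 (AT3G61430) had 3.65 and 3.55 in OE water against 4.69 and 4.29 in WT water, and 3.47 and 3.92 in OE ABA against 4.74 and 4.22 in WT ABA. It was the PIP1 gene with lower signal in OE under both treatments, without overlap between genotypes. Its difference in water was -0.89 ± 0.26 (adjusted p = 0.0455), short of 2-fold. A dimmer probe of the gene was called lower at -1.20 (adjusted p = 0.0464), while another tested probe, at -0.84, was not, and the remaining probe was not tested.

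The call of PIP1;3 (AT1G01620) depended on the probe. Its brightest probe had 5.76 and 5.85 in OE water and 5.04 in WT water replicate 2, replicate 1 being left out as an outlier spot. The difference was 0.77 ± 0.17 (adjusted p = 0.0263), below 2-fold. Of its 4 probes, 2 were called higher under ABA, at 1.03 each, and the same 2 in water, at 1.17 and 1.40. The 2 others gave 0.25 and -0.10 under ABA, so the gene was called from some of its probes and not from others. PIP1;2 (AT2G45960), a channel of leaf and root cells, had 4.31 and 4.76 in OE ABA against 4.85 and 4.66 in WT ABA, and 4.86 and 5.14 in OE water against 4.90 and 4.44 in WT water. The genotypes overlapped under both treatments, and its 6 tested probes gave -0.72 to -0.22 under ABA and -0.24 to 0.45 in water, none called. The probes at -0.24 and 0.45 had no value on WT water replicate 1. PIP1;4 (AT4G00430) had 2.60 and 3.27 in OE water against 3.03 and 1.74 in WT water, which overlapped, while under ABA both OE arrays lay above both WT arrays. Its 5 probes gave -0.57 to 0.37 under ABA and -0.62 to 0.55 in water, none called.

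The PIP2 subfamily, whose proteins are the main water channels of the plasma membrane, held the largest difference among the PIPs. Under ABA 1 of its 8 genes was higher in OE, and in water 3 were, with none lower. PIP2;4 (AT5G60660), a plasma membrane channel best known from roots, was called under both treatments. It had -1.19 and -0.94 in OE ABA against -2.13 and -2.64 in WT ABA, and -1.11 and -0.95 in OE water against -2.34 and -2.69 in WT water. The 4 OE arrays lay within a narrow range above all 4 WT arrays. The log2 fold change was 1.32 ± 0.23 under ABA (adjusted p = 0.0189) and 1.49 ± 0.23 in water (adjusted p = 0.00871). The call under ABA was lost without OE ABA replicate 1 (adjusted p = 0.063), OE ABA replicate 2 (0.0603) or WT ABA replicate 2 (0.0822), and the call in water without OE water replicate 2 (0.0534). The call under ABA was also lost with normexp background correction (0.053) and with only the arrays compared in the fit (0.0572).

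PIP2;7 (AT4G35100), an abundant channel of leaf and root cells, had 5.98 and 6.33 in OE water against 4.48 and 3.73 in WT water. Under ABA the values were 6.04 and 5.81 in OE against 4.95 and 5.29 in WT. The OE arrays stayed within about the same range under both treatments, whereas the WT water arrays lay below the WT ABA arrays. In water it was higher by 2.05 ± 0.29 (adjusted p = 0.00689), and each of its 5 probes was called, none below 1.84. Under ABA the difference was 0.81 ± 0.29 (adjusted p = 0.108), with 0.42 to 0.81 over the 5 probes and none called. The gene kept its call in water when each array was left out in turn, with differences of 1.67 to 2.42.

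PIP2;8 (AT2G16850), the closest relative of that gene, had -1.27 and -0.97 in OE water against -2.73 and -3.32 in WT water, and -1.22 and -1.80 in OE ABA against -2.59 and -2.35 in WT ABA. Its genotypes did not overlap under either treatment. It was higher by 1.91 ± 0.29 in water (adjusted p = 0.0081), a call lost without OE water replicate 2 (adjusted p = 0.0506) and with normexp (0.0589), and differed by 0.96 ± 0.29 under ABA (adjusted p = 0.0725).

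The remaining PIP2 genes were not called. PIP2;1 (AT3G53420), a water and hydrogen peroxide channel of guard cells and roots, had 6.22 and 6.35 in OE ABA against 6.09 and 5.95 in WT ABA, and 6.46 and 6.38 in OE water against 6.48 and 5.61 in WT water. Its 6 probes gave 0.05 to 0.34 under ABA and 0.17 to 0.58 in water. The OE arrays stayed close together, and WT water replicate 1 reached them while replicate 2 did not. PIP2;2 (AT2G37170), a root water channel, had 1.16 and 1.79 in OE ABA against 2.55 and 2.03 in WT ABA, the lowest PIP2 difference under ABA at -0.82 ± 0.29 (adjusted p = 0.108). In water it had 1.16 and 1.34 in OE against 2.06 and 1.66 in WT, again without overlap. PIP2;3 (AT2G37180), which stands next to it on chromosome 2, had the lowest in water, -1.16 ± 0.55 (adjusted p = 0.154), with -1.82 and -1.74 in OE against 0.16 and -1.39 in WT. Under ABA the genotypes overlapped, at -1.13 and -1.26 in OE against -0.44 and -1.44 in WT. PIP2;5 (AT3G54820), known as drought-induced, had -4.94 and -4.67 in OE water against -3.06 and -6.01 in WT water, a gap between WT replicates wider than any between its groups. PIP2;6 (AT2G39010), a leaf channel, had 6.43 and 6.31 in OE ABA against 5.79 and 5.93 in WT ABA, and 5.84 and 6.06 in OE water against 6.15 and 5.17 in WT water. Its 5 probes gave 0.09 to 0.60 under ABA and -0.61 to 0.29 in water.

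**Figure D3:**
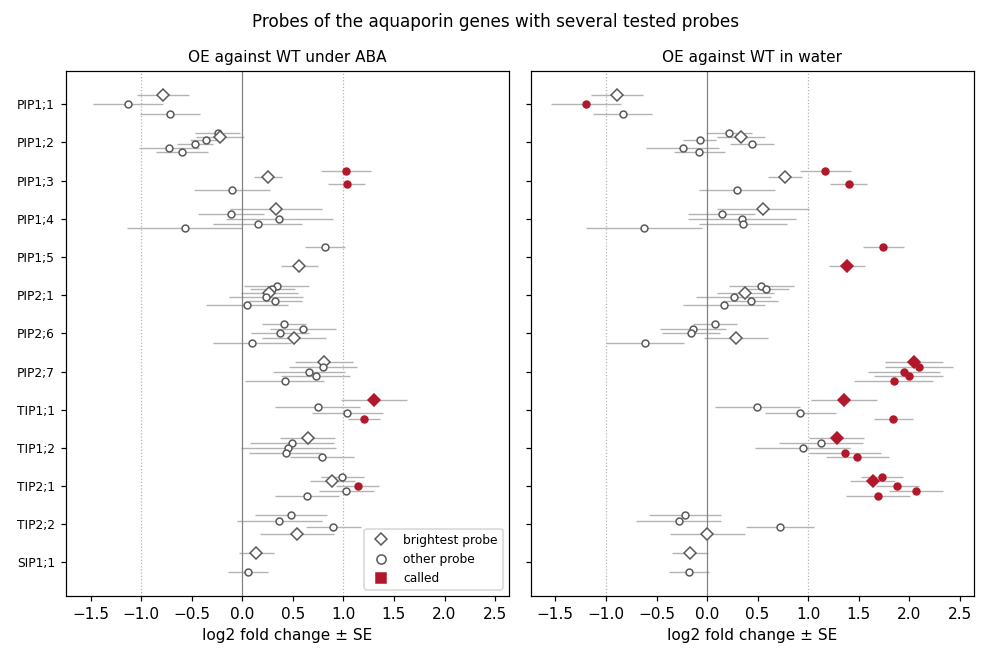
Log2 fold change in OE against WT for every tested probe of the aquaporin genes with several tested probes, under ABA (left panel) and in water (right panel), with standard errors. Diamonds are the brightest probe of a gene and filled marks were called, and in water 3 genes have every probe filled while 4 others have filled and open marks.

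Among the vacuolar channels, 1 of 7 tested TIP genes was higher and 1 lower in OE under ABA, and 3 were higher and 1 lower in water. Their median log2 difference was 0.54 under ABA and 1.05 in water, the latter being the value of TIP2;3, with a standard error of 0.85. Under ABA the median was 0.25 for PIP1, 0.39 for PIP2, 0.62 for NIP and -0.15 for SIP. In water it was 0.55, 0.33, -0.07 and -0.17 in the same order. TIP2;1 (AT3G16240), the delta-TIP that passes water and ammonia into the vacuole of shoot cells, had 7.14 and 7.42 in OE water against 5.89 and 5.40 in WT water. Under ABA it had 6.88 and 6.64 in OE against 5.75 and 5.99 in WT. The OE water arrays were the highest of the 8 for this gene and the WT water arrays were not separated from the WT ABA arrays. It was higher in water by 1.64 ± 0.22 (adjusted p = 0.00628), with 1.64 to 2.06 over 5 probes, all called, and the call stood when each array was left out in turn. Under ABA the difference was 0.89 ± 0.22 (adjusted p = 0.0468), short of 2-fold, and 1 of its 5 probes was called, at 1.14.

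TIP1;1 (AT2G36830), the gamma-TIP of expanding cells, was called higher under both treatments. It had 5.94 and 5.65 in OE ABA against 4.40 and 4.59 in WT ABA, and 6.08 and 5.91 in OE water against 5.14 and 4.15 in WT water. All OE arrays exceeded all WT arrays, and WT water replicate 1 lay nearest to them. The log2 fold change was 1.30 ± 0.33 under ABA (adjusted p = 0.0476) and 1.35 ± 0.33 in water (adjusted p = 0.0271). Its 4 probes gave 0.75 to 1.30 under ABA and 0.50 to 1.84 in water, 2 of them called each time. The probe at 1.84 had no value on WT water replicate 1, so for that probe WT water is replicate 2 alone (0.67). The 2 probes not called in water gave 0.50 and 0.92. The call under ABA held in 2 of the 8 fits that left out 1 array, those without WT water replicate 1 or 2, and was lost without OE ABA replicate 1 (adjusted p = 0.178), OE ABA replicate 2 (0.086), WT ABA replicate 1 (0.195), WT ABA replicate 2 (0.137) or either OE water array (0.0786 each). It was also lost with quantile normalization (0.0583), the authors' normalized table (0.0522), normexp (0.157), no filter on dim probes (0.0819) and the replicate block (0.0553). In water it was lost without OE water replicate 1 (0.102), OE water replicate 2 (0.0972), WT water replicate 2 (0.0546, difference 0.86) or either WT ABA array (0.0501 each), with normexp (0.0885) and with only the arrays compared (0.0785).

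TIP1;2 (AT3G26520), its closest relative in the family, had 6.66 and 6.76 in OE water against 5.83 and 5.02 in WT water, and 6.36 and 6.31 in OE ABA against 5.57 and 5.82 in WT ABA. The gap between genotypes was again clear of overlap under both treatments. It was higher by 1.28 ± 0.27 in water (adjusted p = 0.0197), with 3 of 5 probes called, and differed by 0.65 ± 0.27 under ABA (adjusted p = 0.155). The call in water was lost without OE water replicate 1 (adjusted p = 0.0661), OE water replicate 2 (0.0952) or WT water replicate 2, where the difference was 0.87, below 2-fold, and with normexp (0.0771) or only the arrays compared (0.0648).

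TIP5;1 (AT3G47440), known mainly from pollen mitochondria, ran the other way. It had -6.63 and -6.28 in OE ABA, neither well above background, against -5.15 and -5.23 in WT ABA. In water it had -6.75 and -5.85 in OE, 1 of them above background, against -4.91 and -4.71 in WT. All 4 WT arrays lay above all 4 OE arrays. The gene was tested because both arrays of each WT group were above background, the groups where it was higher. Since the OE ABA arrays give only a bound, it was at least 2.32-fold lower in OE under ABA. The bound was computed against the higher of its own signal and the lowest signal above background on each array. The adjusted p of 0.0441 (limma) belongs to the fitted difference, which uses the values below background. In water, with 1 of the 2 OE arrays above background, the fitted difference was -1.49 ± 0.31 on the log2 scale (adjusted p = 0.0182). Under ABA the call was lost without either OE ABA array (adjusted p = 0.172 and 0.0731), either WT ABA array (0.179 and 0.141) or either WT water array (0.0644 each), and in water without either WT water array (0.0538 and 0.0753). The call under ABA was also lost with the authors' normalized table, with no filter on dim probes and with the methods' t-test, without and with adjustment. With normexp background correction its difference under ABA became positive, 1.31 (adjusted p = 0.274), and that in water was -0.41 (adjusted p = 0.858). With only the arrays compared in the fit the call in water was lost as well (adjusted p = 0.0593).

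The 3 other tested TIP genes were not called. TIP2;2 (AT4G17340), a root vacuole channel, had 4.39 and 4.91 in OE ABA against 4.03 and 4.18 in WT ABA, and 4.87 and 4.42 in OE water against 5.13 and 4.15 in WT water. Its 4 probes gave 0.37 to 0.90 under ABA and -0.28 to 0.72 in water, and the probe at 0.72 had no value on WT water replicate 1. TIP2;3 (AT5G47450), also of roots, had -5.27 and -4.77 in OE ABA against -5.72 and -4.84 in WT ABA, and -2.38 and -4.74 in OE water against -3.94 and -5.28 in WT water. TIP4;1 (AT2G25810), a root vacuole channel, had -3.66 and -6.04 in OE ABA against -4.12 and -5.37 in WT ABA, and -5.20 and -5.30 in OE water against -3.92 and -6.09 in WT water. Replicates lay 2.37 apart in OE water for TIP2;3 and 2.38 apart in OE ABA for TIP4;1, and the genotypes overlapped in both. The summed signal of the root markers also varied within groups, on the log2 scale 4.29 and 3.43 in OE ABA, 1.26 and 2.92 in WT ABA, 3.51 and 2.56 in OE water and 3.63 and 1.73 in WT water, a sum that follows PYK10 closely. Its part in the root channels' values was not tested.

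Among the NIPs, 0 of 4 tested genes were called under ABA, with 2 at an unadjusted p under 0.05, and in water 1 was higher and 1 lower in OE. NIP7;1 (AT3G06100), a boric acid channel of the anther, had -3.72 and -3.23 in OE water against -5.49 and -5.55 in WT water. Under ABA it had -4.66 and -3.82 in OE against -5.43 and -5.32 in WT. All OE arrays lay above all WT arrays, and every array was above background. It was higher by 2.05 ± 0.31 in water (adjusted p = 0.00788), and differed by 1.13 ± 0.31 under ABA (adjusted p = 0.0571). The call in water held when each array was left out in turn and was lost with normexp, where the difference was 0.95 (adjusted p = 0.341).

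NIP6;1 (AT1G80760), which carries boric acid to young shoot tissue, had 1.14 and 0.29 in OE water against 2.90 and 2.07 in WT water, and 1.16 and 0.05 in OE ABA against 2.11 and 1.37 in WT ABA. The OE arrays were lower under both treatments, but replicates were at least 0.73 apart in every group. It was lower in water by -1.77 ± 0.53 (adjusted p = 0.0494) and differed by -1.14 ± 0.53 under ABA (adjusted p = 0.183). The call was lost in 6 of the 8 fits that left out 1 array: without OE water replicate 1 (adjusted p = 0.0708), OE water replicate 2 (0.21), WT water replicate 1 (0.183), WT water replicate 2 (0.0729) or either WT ABA array (0.0685 each). It was also lost with quantile normalization (0.0575), the authors' normalized table (0.0575), normexp (0.109), no filter on dim probes (0.079) and only the arrays compared (0.0645). NIP5;1 (AT4G10380), the boric acid channel of root uptake, had -0.74 and -1.91 in OE ABA against -2.01 and -2.10 in WT ABA, and -1.79 and -1.73 in OE water against -1.63 and -0.66 in WT water. It differed by 0.73 ± 0.46 under ABA and by -0.62 ± 0.46 in water (adjusted p = 0.301 and 0.334). NIP1;2 (AT4G18910) had -1.12 and -0.83 in OE ABA against -1.37 and -1.59 in WT ABA, and -1.06 and -1.09 in OE water against -1.42 and -1.67 in WT water. It differed by 0.51 ± 0.17 and 0.47 ± 0.17 (adjusted p = 0.0934 and 0.0834), without overlap between genotypes under either treatment.

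The SIP genes differed between genotypes by -0.71 to 0.14 over both treatments. Of the 3, 0 were called with limma, with 0 at an unadjusted p under 0.05 under ABA and 1 in water. SIP1;1 (AT3G04090) had 1.65 and 1.93 in OE ABA against 1.82 and 1.49 in WT ABA, and 1.86 and 1.75 in OE water against 1.92 and 2.03 in WT water. It differed by 0.14 ± 0.18 under ABA and -0.17 ± 0.18 in water, with overlap between genotypes under ABA and none in water. SIP1;2 (AT5G18290) differed by -0.15 ± 0.34 and -0.06 ± 0.34, with overlap under each treatment. SIP2;1 (AT3G56950) had 0.31 and -0.18 in OE water against 0.88 and 0.66 in WT water. Both OE arrays were lower, with a difference of -0.71 ± 0.22 (adjusted p = 0.0537).

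No aquaporin gene was called for ABA against water after 3 h in either genotype. So few probes were called in all that 0 of 27 genes does not set the family apart. In OE, 0 of 27 genes were called higher and 0 lower with limma, where 1.7% and 0.349% of all tested probes were called. An unadjusted p under 0.05 was reached by 2 of the 27 genes, beside 4792 of all 31265 tested probes. In WT, 0 were called higher and 0 lower, where 0.55% and 0.253% of all tested probes were called. Here 1 gene reached an unadjusted p under 0.05, beside 5188 of all tested probes. The methods' t-test called 0 in each genotype, without and with adjustment, at 2-fold. With adjustment it called 0 aquaporin genes between genotypes as well, so its adjusted count cannot speak to ABA. The median log2 difference of the 27 genes was -0.11 in OE and 0.09 in WT, beside -0.04 over all tested probes in each. The arrays did not overlap between ABA and water for 12 of 27 genes in OE and 8 in WT, where 46.6% and 52.1% of all tested probes did not overlap. The OE arrays all lay on 1 slide, whereas WT ABA and WT water lay on different slides.

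**Figure D4:**
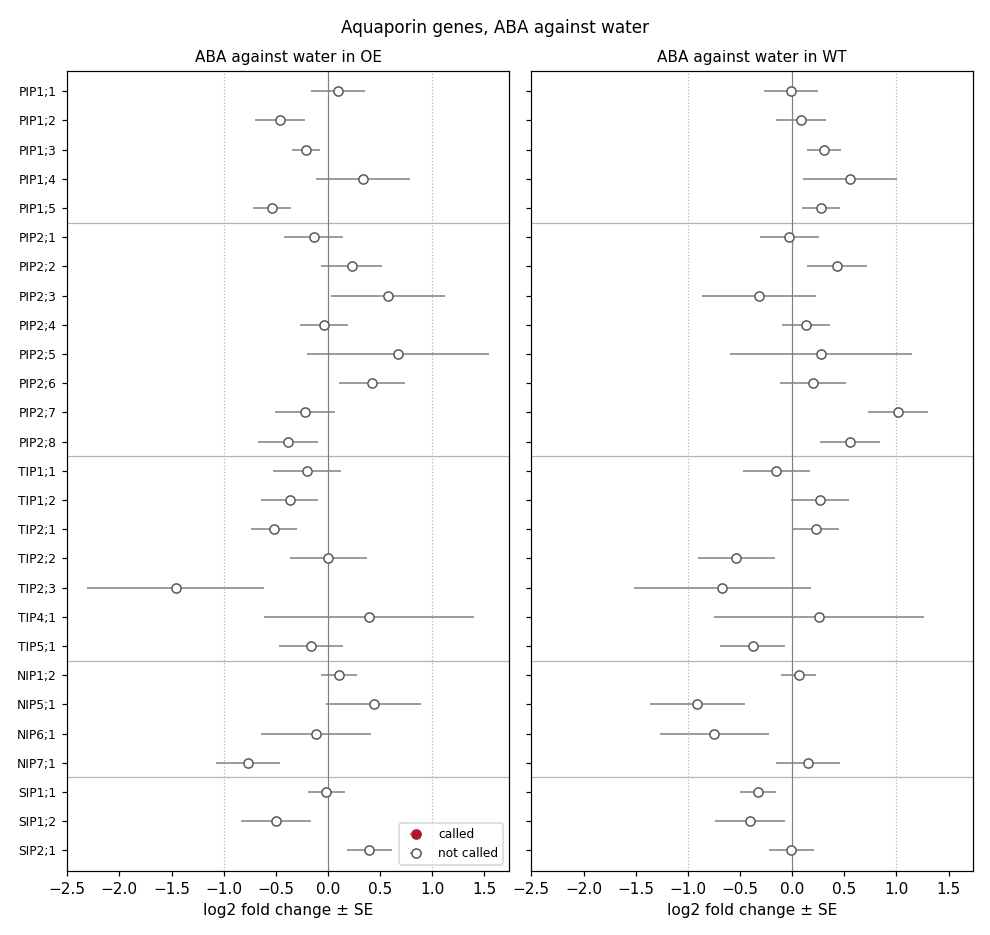
Log2 fold change of each tested aquaporin gene under ABA against water, in OE (left panel) and in WT (right panel), with standard errors from the fit. No point is filled because none was called, and dotted lines mark a 2-fold change. Values run between -1.46 and 0.67 in OE and between -0.91 and 1.01 in WT.

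The genes with the smallest unadjusted p are given as values. In OE, PIP1;5 differed by -0.54 ± 0.18 between ABA and water (adjusted p = 0.246, limma) and NIP7;1 by -0.77 ± 0.31 (adjusted p = 0.315, limma). In WT, PIP2;7 differed by 1.01 ± 0.29 (adjusted p = 0.176, limma), and its 5 probes gave 1.01 to 1.39. The lowest value in OE, -1.46 for TIP2;3, came with a standard error of 0.85. None of them passed the adjusted test, and a response of these genes to ABA was not detectable with 2 arrays per group.

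The difference between genotypes in the response to ABA was tested as the interaction. With limma it called 0 aquaporin genes higher and 0 lower, and 0% of all tested probes in each direction. At an unadjusted p under 0.05 there were 2 of 27 aquaporin genes, beside 3749 of all 31265 tested probes. The 2 genes were PIP1;5 at -0.82 ± 0.26 (adjusted p = 0.329, limma) and PIP2;7 at -1.24 ± 0.41 (adjusted p = 0.342, limma). In both genes OE exceeded WT by more in water than under ABA. That 8 genes were called higher in OE in water and 2 under ABA therefore does not show that the treatments differ. Of the 70 tested probes of the family, 11 reached an unadjusted p under 0.05. They were all 5 of PIP2;7, 3 of 5 of TIP2;1, 2 of 2 of PIP1;5 and 1 of 6 of PIP1;2. The brightest probe of TIP2;1 was not among them (unadjusted p = 0.0558, limma), and probes of 1 gene are not independent.

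Genes that work with aquaporins were read in the same way. Proton pumps energize the plasma membrane and the vacuole, and of 9 tested plasma membrane proton ATPases 1 was called higher in OE under each treatment, AHA7. Under ABA it differed by 1.72 ± 0.36 (adjusted p = 0.0297), with 1 of the 2 WT arrays above background. In water neither WT array was well above background, and AHA7 was at least 3.46-fold higher in OE (adjusted p of the fitted difference = 0.011, limma). AHA7 was tested only because both arrays of each OE group were above background, the groups where it was higher. Of 5 vacuolar proton pump genes, 0 were called under ABA and 0 in water, with 3 and 2 at an unadjusted p under 0.05, and AVP1, the vacuolar pyrophosphatase, differed by 0.90 ± 0.16 in water (adjusted p = 0.0112), short of 2-fold.

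Of 8 genes for the trafficking and phosphorylation of PIPs, 0 were called between genotypes under ABA with limma and 3 at an unadjusted p under 0.05, while in water 1 was higher and 3 lower in OE. TSPO, an ABA-induced membrane protein that binds a PIP2 channel (PIP2;7) and leads it to degradation, had 0.66 and 0.48 in OE ABA and 0.97 and 1.73 in WT ABA, against -7.64 and -8.79 in OE water and -4.61 and -4.07 in WT water. It was high on all ABA arrays and not well above background on either OE water array, so that OE water gives only a bound. In water TSPO was at least 4.40-fold lower in OE than in WT (adjusted p of the fitted difference = 0.00426, limma). SYP121, a syntaxin that delivers the same channel to the plasma membrane, was lower in OE in water by -1.49 ± 0.35 (adjusted p = 0.0256), and RMA1, a ubiquitin ligase that retains PIP2;1, by -1.31 ± 0.24 (adjusted p = 0.0127). SIRK1, a receptor kinase that phosphorylates PIPs, was higher in OE in water by 1.05 ± 0.15 (adjusted p = 0.00745).

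Boron exporters work beside the boric acid channels of the NIP subfamily. Of 4 tested BOR genes, 1 was higher and 1 lower in OE under ABA, and 0 were called in water with limma, with 1 at an unadjusted p under 0.05. BOR2 was higher under ABA by 1.75 ± 0.44 (adjusted p = 0.0489) and BOR5 lower by -1.15 ± 0.21 (adjusted p = 0.0203). The BOR2 replicates lay apart, at -1.66 and -3.13 in OE ABA against -4.11 and -4.19 in WT ABA. Its lower OE ABA array was below both OE water arrays (-2.73 and -2.99). ABA against water called 0 genes of the proton pump lists and 0 boron exporters in either genotype with limma, with 2 plasma membrane proton ATPases, 0 vacuolar pumps and 1 boron exporter at an unadjusted p under 0.05 in each genotype. In the trafficking list it called TSPO alone. In OE, where both water arrays were not well above background, TSPO was at least 133-fold higher under ABA (adjusted p of the fitted difference = 0.00489, limma). In WT it was higher by 5.70 ± 0.45 on the log2 scale (adjusted p = 0.0122, limma).

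**Figure D5:**
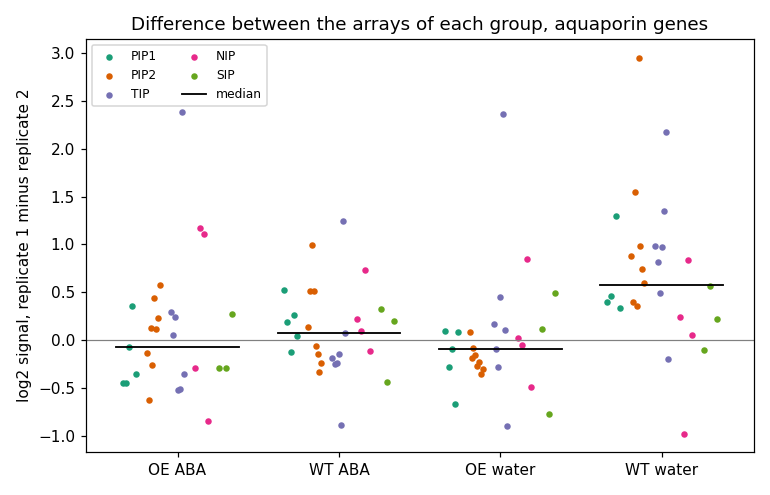
Log2 signal on replicate 1 minus replicate 2 for each tested aquaporin gene, by group, coloured by subfamily, where black lines are the group medians. In WT water 23 of 26 genes lie above 0 with a median of 0.58, while the medians of the other groups lie between -0.09 and 0.08.

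The WT water arrays differed from each other more than the other pairs did in the PIP1, PIP2 and TIP genes. This did not hold for the NIP genes, with a median absolute gap of 0.54 in WT water against 0.98 in OE ABA. For the SIP genes the gap in WT water, 0.22, was the smallest of the groups. Replicate 1 was higher than replicate 2 for 23 of 26 genes with both values, among them all 8 PIP2 genes and the 4 measured PIP1 genes, and the median gap was 0.58. In the other groups replicate 1 was higher for 13 of 27 genes (OE ABA), 15 of 27 (WT ABA) and 11 of 27 (OE water), with medians of -0.07, 0.08 and -0.09. Over all tested probes of WT water, 57.0% were higher on replicate 1, with a median gap of 0.06. Without WT water replicate 1, 9 aquaporin genes were called higher in OE in water and 0 lower, 8 of them among the 10 called with all arrays. Without WT water replicate 2, 6 were called higher and 2 lower, 6 of them among the 10.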

How the data were processed

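Each of the 8 samples was hybridized to 1 array. The authors deposited, per array, the scanner intensity of 45220 spots from Feature Extraction 10.7.3.1 (design annotated on TAIR10), background-subtracted and detrended by the image extraction, with no scaling between arrays. They also deposited a table of log2 values, which followed the log2 intensities of each array with r between 0.9995 and 0.9999 across probes and had column medians of 7.59, so they are neither ratios nor centred. The methods name MAS 5.0 for the normalization and do not settle the scaling, and the table served as an alternative.

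Control and outlier spots were left out, the mean was taken over spots of 1 probe, and log2 processed intensities were set relative to the 75th percentile of their array. Per array, 68.1% to 72.1% of probes stood well above background, and the number of arrays limits the precision. Probes were tied to genes through transcript accessions in the RefSeq table of TAIR10.1 (34394 probes, 78.9%). Tested were probes above background on both replicates of any group (31265, of which 1156 lacked a value on some array) with limma 3.58.1 in R 4.3.3 (lmFit and eBayes, 1 fit of 4 group means over 8 arrays, 4 residual and 1.99 prior degrees of freedom), with Benjamini-Hochberg adjustment over all tested probes and 5 contrasts. The fit was tested on simulated data. The genes named are members called in a contrast, members whose probes disagree, and list genes that were called or define a list. Members and lists were chosen with earlier results of these data known. No genome or sequence was used here, so promoters and proteins were not examined. The methods call the 2 arrays of a group biological replications. They also say that seedlings harvested per treatment were split into portions that served as replicates. The spread between arrays may thus be that between portions of the same harvest rather than between separately treated plants. Alternatives changed the normalization, background correction, filter, arrays fitted, blocks, threshold, test and probe rule, and left out each array in turn.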

Additional observations from a re-analysis of the deposited data

How the results depend on the processing

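Under ABA, 3 aquaporin genes were called between OE and WT. The count was 1 with the authors' normalized table, 1 without the filter on dim probes, 0 with normexp background correction, 1 with the methods' t-test at an unadjusted p, 0 with the same test after adjustment, 5 when any probe of a gene could carry the call, and 0 to 2 when 1 array was left out. In water, where 10 were called, the count was 4 with normexp, 6 with only the arrays compared in the fit, 2 and 0 with the t-test without and with adjustment, and 5 to 10 when 1 array was left out. Quantile normalization, cyclic loess, probes above background on all arrays, the slide as a random block and the threshold without a minimum fold kept both counts within 1.5 times of these. For ABA against water, 0 genes were called in each genotype under each normalization, filter, block and left-out array tried, and the same held for the interaction. At an unadjusted p with 2-fold, 1 gene was called in WT (0 in OE) and 1 for the interaction. The difference of TIP5;1 under ABA turned to 1.31 with normexp, and the cause was not tested. Normexp moved the median of all probes under ABA to 0.35 between genotypes, beside 0.02 without it. The labels give replicate numbers without tying them across groups, and same-numbered arrays deviated together with r between -0.18 and 0.11. With the replicate block, 10 genes were called between genotypes in water, 3 under ABA (2 of them the same genes), and 0 in each of the other contrasts. With the numbers crossed between WT ABA and WT water, chosen after seeing the data, 0 genes were called. With 2 arrays per group and dim signals for TIP and NIP genes of pollen, seed and root, small changes of these genes cannot be told from the spread.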
